A study of Mus musculus with 8 samples.

Results

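The purinergic genes examined here were 10 of the 16136 genes listed for both diets, picked by symbol: the receptors P2ry6, P2ry10, P2ry12, P2ry13 and P2ry14, the channels P2rx4 and P2rx7, the ectonucleotidases Entpd1 and Nt5e, and the adenosine receptor Adora2b. All 10 had a row in both tables, and all 10 passed the filter on low counts in both diets. RNA was sequenced from macrophages sorted from epididymal white adipose tissue (eWAT) of male WT C57BL/6J mice that were put on a chow diet (ND) or a high-fat diet (HFD) at 6 weeks of age, the HFD lasting 8 weeks. Adhesion-related macrophages (ARM) came from the floating adipocyte layer that collagenase leaves behind, after the adipocytes in it had been broken by vortexing with beads, and stromal vascular macrophages (SM, NARM in the sample titles) came from the pelleted stromal vascular fraction of the same digestion. Each of the 4 groups held 2 libraries, each a pool of 6 mice on HFD or 10 mice on ND, so the spread given below is between pools.

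Cells release ATP, ADP, UTP and UDP when they are stressed, active or dying, and neighbouring cells read these nucleotides through P2Y receptors, which couple to G proteins, and P2X receptors, which are cation channels opened by ATP. Ectonucleotidases at the cell surface end the signal: CD39 (Entpd1) trims ATP and ADP to AMP, and CD73 (Nt5e) turns AMP into adenosine, which acts on its own receptors. Macrophages use this system to find dying cells, to start inflammasome activity through P2rx7 and to restrain inflammation through adenosine.

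Library totals ran from 18288775 to 19040133 counts on HFD and from 14508824 to 16319038 on ND. Of 10 macrophage markers, including Adgre1 and Csf1r, 0 were called between ARM and SM in either diet by edgeR (median log2 fold change -0.05 on HFD and -0.02 on ND), and they summed to 8410 to 8720 FPKM in ARM and 8300 to 8780 in SM on HFD. Markers of some other cells were present and higher in ARM: 8 of 10 adipocyte markers on HFD (summed FPKM 523 to 584 in ARM and 182 to 221 in SM) and 7 of 10 on ND (257 to 386 and 153 to 201). Endothelial markers were called higher in ARM for 9 of 9 genes on HFD and for 0 of 9 on ND, mesothelial markers for 0 of 8 on HFD and 7 of 8 on ND, and fibroblast and progenitor markers for 5 of 9 on HFD and 8 of 9 on ND. Not all lists rose. Dendritic cell markers summed to 75.8 to 77.2 FPKM in ARM and 102 to 105 in SM on HFD, with 0 called. Neutrophil markers summed to 36.9 to 63.7 FPKM in ARM and 71.2 to 80.3 in SM on ND, with S100a9 called lower. On HFD they summed to 47.4 to 48 and 39.7 to 39.9, with 0 called.

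Most of the purinergic genes of these macrophages were at nearly the same level in ARM and SM. On HFD, 1 of the 10 genes, P2ry10, was called lower in ARM and 0 were called higher, where a call needed more than a 1.5-fold change together with an adjusted p below 0.05 in edgeR's quasi-likelihood test. Over all 13337 genes tested on HFD, 4.46% were called higher in ARM and 0.292% lower. On ND, 0 of 10 were called in either direction, against 3.55% called higher and 0.129% called lower among 12441 genes. DESeq2 and limma on ND also called 0, and 1 of the 10 genes (P2ry10) had an unadjusted p under 0.05, against 3 on HFD (P2ry10, P2ry12 and Nt5e) and against 14.9% and 23.2% of all genes tested on ND and HFD. The median log2 fold change of the 10 genes was -0.01 on HFD and -0.02 on ND, equal to the medians of all genes tested. Apart from P2ry10 and Nt5e, the other 8 genes differed by at most 0.28 on the log2 scale on HFD and 0.35 on ND. No limit of their 95% confidence intervals lay farther from 0 than 0.47 on HFD and 0.77 on ND. By FPKM per library, ARM and SM overlapped for 6 genes on HFD and 4 on ND. ARM lay wholly above SM for P2rx7 and Nt5e on HFD and for P2ry13, Nt5e and Adora2b on ND. It lay wholly below for P2ry10 and P2ry12 on HFD and for P2ry10, P2rx4 and Entpd1 on ND. The share of all genes that separate in this way was not counted, so separation of 2 libraries from 2 is given only as a description.

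**Figure D1:**
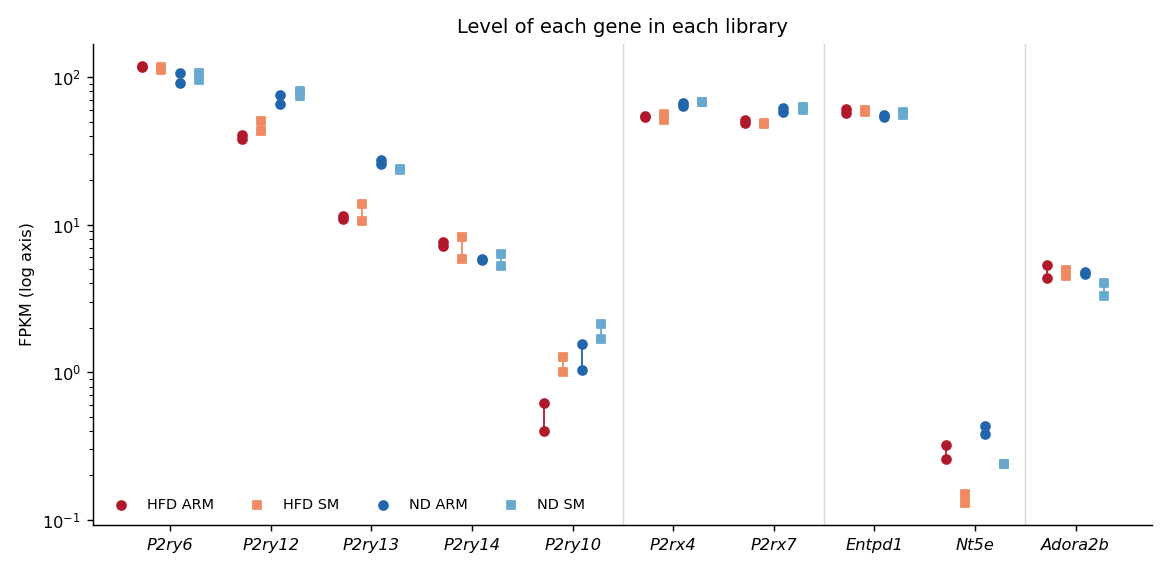
FPKM of each gene (log axis) in each of the 8 libraries, by group, with a line joining the 2 libraries of a group and grey lines separating P2Y receptors, P2X channels, ectonucleotidases and the adenosine receptor. P2ry6 lies highest in all 4 groups and Nt5e lowest, and P2ry12 and P2ry13 lie lower in the HFD groups than in the ND groups.

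P2ry6, the receptor for UDP that is known for driving phagocytosis, was the highest of the 10 genes on the FPKM scale, which divides a count by gene length and library size. Its FPKM was 119.17 and 116.21 in HFD ARM, 117.70 and 111.88 in HFD SM, 90.48 and 106.70 in ND ARM, and 95.85 and 106.84 in ND SM. The ARM and SM libraries overlapped in both diets. Its log2 fold change between ARM and SM was 0.01 (SE 0.06, 95% interval -0.13 to 0.14) on HFD and -0.04 (SE 0.11, interval -0.27 to 0.19) on ND.

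P2ry12, P2ry13 and P2ry14 are close relatives that lie side by side on mouse chromosome 3 (build GRCm38, the same assembly as mm10), all on the minus strand. P2ry14 spans chr3:59113855-59153618, P2ry13 chr3:59207892-59210882 and P2ry12 chr3:59216272-59262871, with only 5389 bases between P2ry13 and P2ry12. All 3 sit inside Med12l, which is read from the other strand. Med12l itself was listed at only 0.14 to 0.29 FPKM over the 8 libraries, and its exons share 9 bases with those of P2ry12 and 0 with those of P2ry13 and P2ry14.

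P2ry12, an ADP receptor best known from platelets and microglia, was at 40.72 and 37.97 FPKM in HFD ARM and at 50.40 and 43.38 in HFD SM, with no overlap and ARM the lower. The log2 fold change was -0.28 (SE 0.08, interval -0.47 to -0.10), a level 0.823 times that of SM. This lay under the 1.5-fold mark, and the adjusted p in edgeR was 0.0621, also short of the threshold. On ND its FPKM was 75.22 and 66.19 in ARM and 80.99 and 74.55 in SM. These overlapped, with a log2 fold change of -0.14 (SE 0.10, interval -0.35 to 0.08). Platelets also carry P2ry12, and 0 of 5 platelet and megakaryocyte markers (Itga2b, Pf4, Gp1ba, Gp9 and Ppbp) were called in either diet. Their summed FPKM was 823 to 870 in ARM and 760 to 907 in SM on HFD, and 1050 to 1180 and 1260 to 1340 on ND. A sum does not show which of the 5 genes was high, so it does not measure platelets. The part of platelets in the P2ry12 values was not tested.

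P2ry13, a second ADP receptor, was at 11.42 and 10.94 FPKM in HFD ARM and 13.90 and 10.53 in HFD SM, overlapping values with a log2 fold change of -0.16 (SE 0.12, interval -0.42 to 0.10). On ND the 2 ARM libraries (25.62 and 27.64) lay above the 2 SM libraries (23.38 and 23.66), with a log2 fold change of 0.18 (SE 0.10, interval -0.04 to 0.40). Neither passed the test. The change between ARM and SM was lower on HFD than on ND by 0.35 on the log2 scale (coefficient -0.35, SE 0.16, interval -0.70 to -0.01), with an unadjusted p of 0.0456 and an adjusted p of 0.643 in edgeR.

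P2ry14, which responds to UDP-glucose and related UDP-sugars, was at 7.22 and 7.60 FPKM in HFD ARM, 8.27 and 5.89 in HFD SM, 5.83 and 5.72 in ND ARM, and 5.28 and 6.37 in ND SM. The ARM values fell between the SM values in both diets. The log2 fold changes were 0.02 (interval -0.30 to 0.34) on HFD and 0.01 (interval -0.35 to 0.37) on ND.

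**Figure D2:**
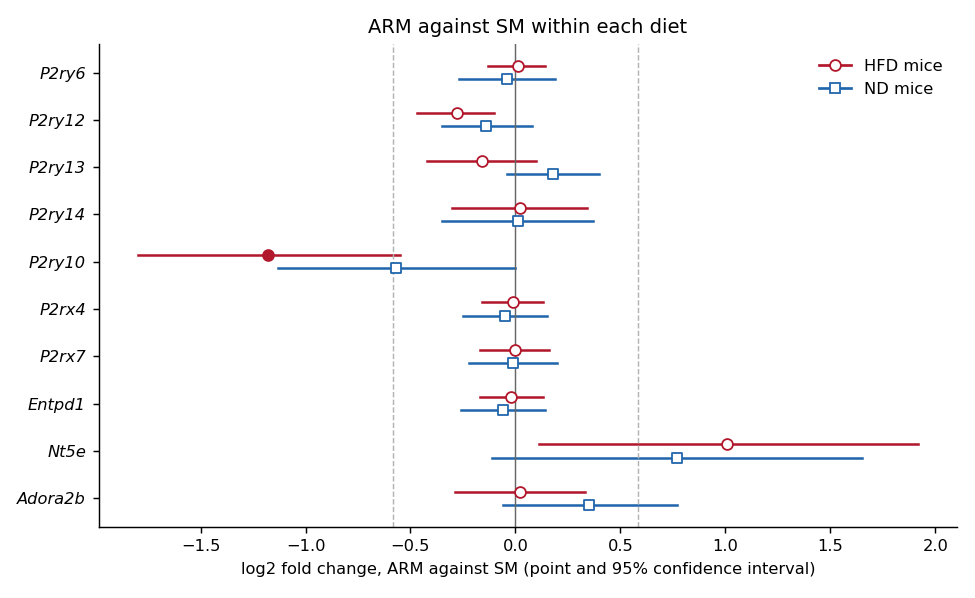
Log2 fold change of each gene between ARM and SM (x axis), with its 95% confidence interval from edgeR, on HFD (circles) and ND (squares), where filled points passed the test and dashed lines mark a 1.5-fold change. The only filled point is P2ry10 on HFD at -1.18, Nt5e lies to the right in both diets with wide intervals, and the other points lie near 0.

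The ATP-gated channels P2rx4 and P2rx7 are also genomic neighbours, at chr5:122707544-122729738 and chr5:122643911-122691432 on the plus strand, 16111 bases apart. P2rx4, which opens at lower ATP than P2rx7 and also sits in lysosomes, was at 54.01 and 54.52 FPKM in HFD ARM, 56.20 and 51.43 in HFD SM, 64.13 and 66.58 in ND ARM, and 67.94 and 67.54 in ND SM. P2rx7, which needs high ATP and is known for triggering the NLRP3 inflammasome, was at 51.55 and 48.58 in HFD ARM, 48.50 and 48.34 in HFD SM, 58.43 and 61.29 in ND ARM, and 60.13 and 62.95 in ND SM. Both channels were thus well expressed and nearly level between ARM and SM. The log2 fold changes of P2rx4 were -0.01 (SE 0.07, interval -0.16 to 0.13) on HFD and -0.05 (SE 0.09, interval -0.25 to 0.15) on ND. Those of P2rx7 were 0.00 (SE 0.07, interval -0.17 to 0.16) on HFD and -0.01 (SE 0.10, interval -0.22 to 0.20) on ND. No limit of these intervals lay farther from 0 than 0.25. P2rx4 counts were fractional in all 4 HFD libraries, a sign of reads divided among genes, and 1.63% of its stretches of 50 bases also occur in transcripts of other genes. P2rx7 counts were fractional in 1 HFD library, and its exons share 119 bases with the microRNA gene Mir8115 on the same strand.

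The ectonucleotidases stood far apart in level. Entpd1 (chr19:40612366-40741602, plus strand), which encodes CD39, was at 61.14 and 56.91 FPKM in HFD ARM, 59.76 and 57.57 in HFD SM, 53.75 and 55.02 in ND ARM, and 55.25 and 58.19 in ND SM. Its log2 fold change was -0.02 (SE 0.07, interval -0.17 to 0.13) on HFD and -0.06 (SE 0.09, interval -0.26 to 0.14) on ND, so ARM and SM were nearly level. Nt5e (chr9:88327197-88372092, plus strand), which encodes CD73, was at 0.13 to 0.43 FPKM and rested on few reads.

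Nt5e had 21 and 17 counts in HFD ARM against 9 and 10 in HFD SM, and 24 and 19 in ND ARM against 12 and 13 in ND SM. All 4 ARM libraries lay above the SM libraries of their diet. The log2 fold change was 1.01 (SE 0.41, interval 0.11 to 1.92) on HFD, with an adjusted p of 0.165 in edgeR, and 0.77 (SE 0.41, interval -0.11 to 1.65) on ND, with an adjusted p of 0.429. Neither passed the test, and at this depth the intervals run from little or no difference up to 3.78-fold on HFD and 3.14-fold on ND. Fibroblasts and their progenitors also carry CD73, and reads of their marker genes were present in these libraries although macrophages had been sorted. The summed FPKM of the 9 fibroblast and progenitor markers was 175 to 215 in ARM and 118 to 131 in SM on HFD, and 228 to 330 and 81.2 to 111 on ND, and their part in the Nt5e values was not tested. In bulk libraries such as these, more cells of a type and more RNA per cell cannot be told apart.

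Adora2b (chr11:62248984-62266453, plus strand), the adenosine receptor that needs the most adenosine, was at 4.37 and 5.29 FPKM in HFD ARM, 4.46 and 4.90 in HFD SM, 4.64 and 4.76 in ND ARM, and 4.05 and 3.31 in ND SM. The groups overlapped on HFD, where the log2 fold change was 0.02 (SE 0.14, interval -0.29 to 0.33). On ND both ARM libraries lay above both SM libraries, with a log2 fold change of 0.35 (SE 0.19, interval -0.06 to 0.77) and an adjusted p of 0.448 in edgeR, which did not pass the test.

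P2ry10, the gene called lower in HFD ARM, belongs to the P2Y group by sequence but is known as a receptor for lysophosphatidylserine, mostly in lymphocytes. It lies on the X chromosome (chrX:107088492-107104974, plus strand), 43952 bases from its near copy P2ry10b (chrX:107148927-107173661, plus strand), which was added to the description after its values were seen. In the GENCODE M21 transcripts of GRCm38 the longest reading frames of the 2 genes are 987 and 1059 bases long. Their first 519 bases match at 493 positions, including a run of 160 identical bases (positions 215 to 374, counted from the A of the start codon), and the remainder matches at 57.4%. The stretches from position 145 to 444 are shown because they hold this run, and a read that lies wholly within it matches both genes. Over the whole P2ry10 transcripts, 113 of 2979 stretches of 50 bases (3.79%) also occur in P2ry10b. Capitals mark the 12 bases that differ, and each stretch lies within a single exon, at chrX:107102605-107102904 for P2ry10 and chrX:107171180-107171479 for P2ry10b.

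P2ry10: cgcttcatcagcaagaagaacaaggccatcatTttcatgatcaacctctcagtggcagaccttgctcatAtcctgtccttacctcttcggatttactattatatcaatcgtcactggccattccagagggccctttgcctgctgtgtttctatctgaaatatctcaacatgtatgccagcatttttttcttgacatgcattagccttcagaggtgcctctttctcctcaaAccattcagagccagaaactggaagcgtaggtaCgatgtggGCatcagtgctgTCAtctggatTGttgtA

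P2ry10b: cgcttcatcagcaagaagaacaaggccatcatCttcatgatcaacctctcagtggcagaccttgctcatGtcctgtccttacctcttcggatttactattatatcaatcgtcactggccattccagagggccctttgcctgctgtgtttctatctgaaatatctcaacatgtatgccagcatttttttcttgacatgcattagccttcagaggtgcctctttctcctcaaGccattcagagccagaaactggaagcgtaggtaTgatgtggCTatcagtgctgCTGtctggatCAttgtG

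P2ry10 had 20.94 and 32 counts in HFD ARM, 53.86 and 68.17 in HFD SM, 45 and 60 in ND ARM, and 67 and 90 in ND SM. ARM lay below SM in both diets. Counts on HFD and ND cannot be set side by side, because they were made separately and the libraries differ in depth. P2ry10 counts were fractional in 3 HFD libraries and P2ry10b counts in 4, against 0 ND libraries for both genes. The log2 fold change was -1.18 (SE 0.28, interval -1.80 to -0.55) on HFD, with an adjusted p of 0.0277 in edgeR, and -0.57 (SE 0.26, interval -1.13 to 0.00) on ND, with an adjusted p of 0.33. The difference between the diets in this change was -0.62 (SE 0.40, interval -1.49 to 0.24), with an adjusted p of 0.818. A lower level on HFD and not on ND was therefore not shown to differ between the diets.

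Most reads of the pair went to P2ry10b, with 468.05 and 405.07 counts in HFD ARM, 573.40 and 452.47 in HFD SM, 513 and 322 in ND ARM, and 330 and 263 in ND SM. P2ry10 held 4.28% and 7.32% of the counts of the pair in HFD ARM, 8.59% and 13.1% in HFD SM, 8.06% and 15.7% in ND ARM, and 16.9% and 25.5% in ND SM. The share was lower in ARM than in SM in both diets. P2ry10b did not pass the test, with log2 fold changes of -0.21 (SE 0.12, adjusted p 0.337) on HFD and 0.47 (SE 0.17, adjusted p 0.156) on ND. With the counts of both genes summed before the fit, a choice made after the fractional counts were seen, the log2 fold change was -0.29 (SE 0.10, interval -0.52 to -0.06, adjusted p 0.12 in edgeR) on HFD and 0.31 (SE 0.14, interval 0.01 to 0.62, adjusted p 0.318) on ND. Neither was called. The direction on ND was thus opposite for the sum and for P2ry10 alone, and the difference between the diets in the sum was -0.62 (SE 0.20, interval -1.04 to -0.19, adjusted p 0.341).

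**Figure D3:**
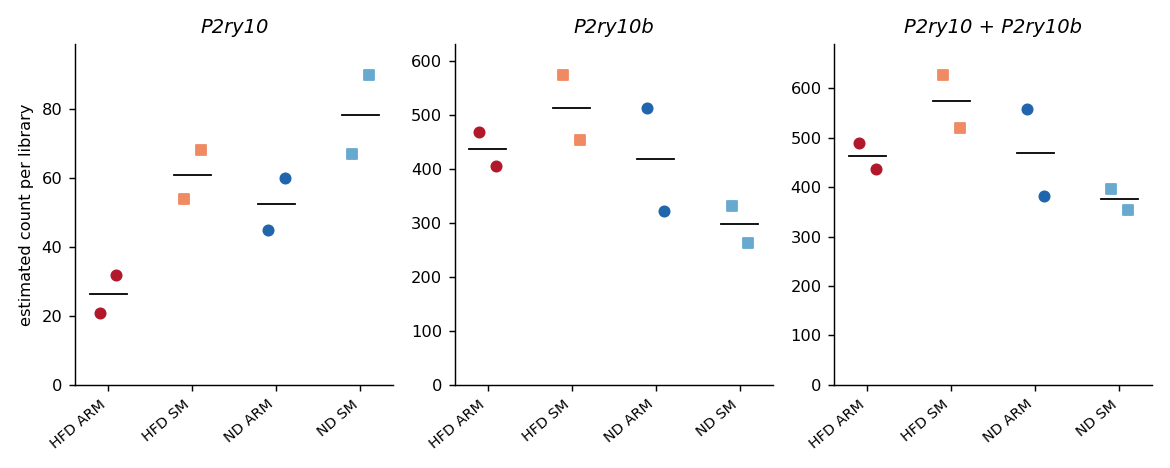
Estimated counts per library (y axes, from 0) of P2ry10, P2ry10b and their sum in the 4 groups, with a point per library and a line at the group mean. P2ry10 is at 20.94 and 32 in HFD ARM, below 53.86 and 68.17 in HFD SM. P2ry10b is at 263 to 573.40 and overlaps between HFD ARM and HFD SM, while the sum does not overlap between these groups.

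The direction of the P2ry10 change on HFD held with any library left out, while its size varied. In edgeR the log2 fold change was -0.91 without the first HFD ARM library and -1.50 without the second. It was -1.33 without the first HFD SM library and -1.0 without the second. The call was not kept in all of these fits. Each leaves 1 library in a group, so a lost call cannot be told apart from lost precision. DESeq2 gave -1.18 with an adjusted p of 0.158. Lymphocytes express P2ry10. On HFD the 10 T and NK cell markers summed to 5.47 to 5.60 FPKM in ARM and 4.32 to 4.53 in SM, with Trac not listed above 0, 2 of 4 tested markers above 0 in log2 fold change and Cd4 called higher. The 7 B cell markers summed to 5.82 to 5.99 in ARM and 4.29 to 4.52 in SM, with 2 of 4 tested above 0 and Ebf1 called higher. The summed FPKM of the 7 dendritic cell markers was 75.8 to 77.2 in ARM and 102 to 105 in SM on HFD, and 88.2 to 102 and 109 to 110 on ND, with 0 of the 6 that could be tested called in either diet. The part of these cell types in the P2ry10 values was not tested. Over the 8 libraries, with log2 values centred within each diet, the genes closest to P2ry10 were Sec16b (Pearson r 0.994) and Ttc41 (0.978) among 13358 genes, of which 92 were above 0.9, a description over few points that share their group structure.

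No gene of the 10 passed the test of a difference between the diets in the change from SM to ARM. edgeR called 0 of 10 at an adjusted p under 0.05, against 0.165% of 13358 genes, and DESeq2 called 0 as well. In edgeR 1 gene (P2ry13) had an unadjusted p under 0.05. The share of all genes under that p was not counted, so this value does not set P2ry13 apart.

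The order of the 10 genes by FPKM was the same in ARM and SM of a diet but shifted between the diets. On HFD it ran P2ry6, Entpd1, P2rx4, P2rx7, P2ry12, P2ry13, P2ry14, Adora2b, P2ry10 and Nt5e, from group means of 118 to 0.29 FPKM in ARM and from 115 to 0.14 in SM. On ND P2ry12 was the second (70.7 in ARM and 77.8 in SM) and Entpd1 the fifth (54.4 and 56.7), with the rest in the same order. Neighbours in the order did not overlap over their 2 libraries, except P2rx7 and P2ry12 in HFD SM and P2ry12 and P2rx4 in ND ARM.

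The ADP receptors P2ry12 and P2ry13 stood lower on HFD than on ND in both macrophage populations. The HFD and ND tables were made separately, with 32.3% to 32.9% of counts fractional on HFD and 8.55% to 9.36% on ND, so diet and table cannot be told apart and no test was made. The median gene was at a log2 ratio of HFD to ND of -0.13 in ARM and -0.17 in SM on FPKM, and at -0.03 and -0.02 on TMM-normalized CPM, counts scaled by library size with no length term, with -0.11 and -0.09 on TPM. Against that shift, P2ry13 stood at a log2 ratio of -1.25 in ARM (11.2 FPKM ± 0.339 on HFD and 26.6 ± 1.43 on ND, SD, n = 2) and -0.94 in SM (12.2 ± 2.38 and 23.5 ± 0.198). P2ry12 stood at -0.85 in ARM (39.3 ± 1.94 and 70.7 ± 6.39) and -0.73 in SM (46.9 ± 4.96 and 77.8 ± 4.55). Falls of this size were not particular to the ADP receptors: P2ry10 stood at -1.34 in ARM and -0.75 in SM, from few counts. Among the other purinergic genes examined, Cd38 was at 31.48 FPKM on HFD and 69.56 on ND in ARM, and 32.84 and 65.85 in SM. Slc29a1 went the other way, at 79.24 and 70.41 in ARM and 80.77 and 69.81 in SM.

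On the FPKM scale, 5 of the 10 genes (P2rx4, P2rx7, P2ry10, P2ry12 and P2ry13) were lower in every HFD library than in every ND library of both ARM and SM, as were 41.9% of 10858 genes with a mean of at least 1 FPKM. P2ry6 was the 1 gene higher in this way, as were 18.2% of all genes. Nt5e was also lower in both populations on HFD but fell under the minimum of 1 FPKM and was not counted. The same 5 genes were lower on TPM and on TMM-normalized counts, while the number higher was 2 on TPM (with Entpd1) and 4 on TMM-normalized counts (with Adora2b and P2ry14 as well). Of all 10858 genes, 36.9% were lower and 20.9% higher on TPM, and 30.7% and 26.4% on TMM-normalized counts. The P2X channels moved less, at log2 ratios of -0.27 in ARM and -0.33 in SM for P2rx4 and -0.26 and -0.35 for P2rx7, and P2ry6 was at 0.26 (ARM) and 0.18 (SM).

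**Figure D4:**
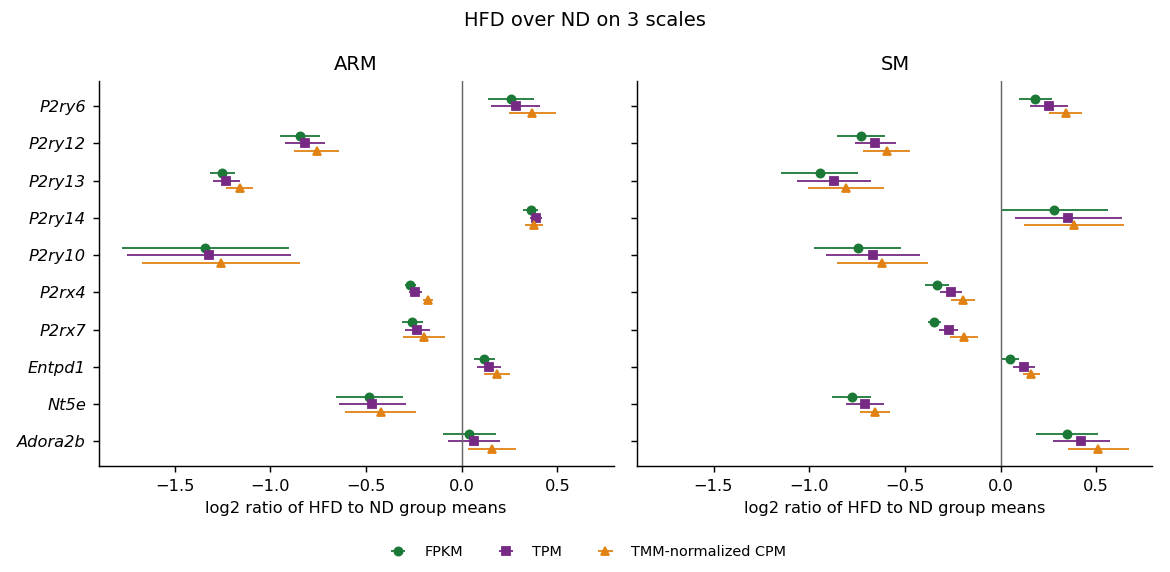
Log2 ratio of the HFD to the ND group mean of each gene (x axes) in ARM and SM on the FPKM, TPM and TMM-normalized CPM scales, where bars give the standard error of the difference between the mean log2 values of 2 libraries each. P2ry12, P2ry13 and P2ry10 lie left of 0 in both panels on all 3 scales and P2ry6 lies right of 0.

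Beyond the 10 genes, 50 other genes of nucleotide and adenosine signalling were examined in 8 lists. Calls in these data ran mostly towards ARM, with 4.46% of all genes called higher and 0.292% lower on HFD, and 3.55% and 0.129% on ND. On HFD 38 of the 50 could be tested, 2 were called higher and 0 lower, with a median log2 fold change of 0.08. On ND 34 could be tested, 4 were called higher and 0 lower, with a median of 0.02. Counted with the 10 genes in their lists, 1 of 9 tested ectonucleotidases was called higher on HFD and 3 of 9 on ND, 1 of 4 adenosine receptors on HFD and 0 of 3 on ND, and 0 of 5 release channels on HFD and 1 of 5 on ND. The P2Y receptors (7 tested on HFD and 6 on ND), P2X channels (6 and 5), intracellular ENTPD enzymes (4 and 4) and adenosine handling genes (9 and 8) held 0 called genes in edgeR. The called genes were Enpp2 in both diets, Adora1 on HFD, and Entpd2, Enpp3 and Gja1 on ND, and their levels were far below that of Entpd1.

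Enpp2 encodes autotaxin, a secreted enzyme of the ectonucleotidase family that makes lysophosphatidic acid. It was at 2.27 and 2.52 FPKM in HFD ARM, 1.06 and 0.75 in HFD SM, 5.48 and 5.24 in ND ARM, and 1.53 and 1.58 in ND SM, without overlap in either diet. It rose in ARM by 1.38 on the log2 scale on HFD (SE 0.20, adjusted p 0.00181 in edgeR) and by 1.79 on ND (SE 0.17, adjusted p 4.02e-05). Without the second HFD ARM library the HFD value was 1.30 with an adjusted p of 0.0583.

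Entpd2, which prefers ATP over ADP and so leaves ADP behind, was at 2.54 and 3.32 FPKM in ND ARM and 1.09 and 1.02 in ND SM, and rose by 1.47 (SE 0.28, adjusted p 0.00558 in edgeR). On HFD it was at 1.91 and 2.21 in ARM and 1.17 and 1.42 in SM, again without overlap, with a log2 fold change of 0.64 (SE 0.22) and an adjusted p of 0.0985. Without the second ND ARM library the ND value was 1.26 with an adjusted p of 0.0822. The difference between the diets in this change was -0.84 (SE 0.34), with an adjusted p of 0.559.

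Enpp3, a basophil and mast cell marker that splits extracellular ATP, had only 23 and 28 counts in ND ARM and 5 and 9 in ND SM. It rose by 1.85 (SE 0.47, adjusted p 0.0338 in edgeR) on ND, and the call was lost without the second ND ARM library (1.61, adjusted p 0.273) and without the first (1.53, adjusted p 0.48) or second (2.28, adjusted p 0.133) ND SM library. On HFD the libraries overlapped (23 and 32 counts in ARM, 8 and 26 in SM). The 6 mast cell markers summed to 1.95 to 4.79 FPKM in ND ARM and 3.26 to 4.13 in ND SM, with 0 called. Gja1, the gap junction protein connexin 43, whose open hemichannels release ATP, was at 3.53 and 4.5 FPKM in ND ARM and 2.3 and 2.5 in ND SM, and rose by 0.74 (SE 0.18, adjusted p 0.0287). Its call was lost without the second ND ARM library (0.55, adjusted p 0.288) and without the first (0.68, adjusted p 0.201) or second (0.81, adjusted p 0.0524) ND SM library. On HFD its log2 fold change was 0.58 (SE 0.14, adjusted p 0.0233), just under the 1.5-fold mark.

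Adora1, an adenosine receptor known from adipocytes and neurons, was called on HFD from very few reads: 17 and 9.83 counts in ARM and 2.32 and 3 in SM, a log2 fold change of 2.40 (SE 0.62, interval 1.01 to 3.79, adjusted p 0.0381 in edgeR). The call was lost with any 1 of the 4 HFD libraries left out, with log2 fold changes of 1.96 to 2.74. On ND it had 6 and 13 counts in ARM and 0 and 2 in SM and could not be tested after the filter. In the same comparisons 8 of 10 adipocyte, 9 of 9 endothelial and 5 of 9 fibroblast and progenitor markers were called higher in ARM on HFD, and 7 of 10 adipocyte, 8 of 9 fibroblast and progenitor and 7 of 8 mesothelial markers on ND, and their part in the rises of Enpp2, Entpd2, Enpp3, Gja1 and Adora1 was not tested.

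**Figure D5:**
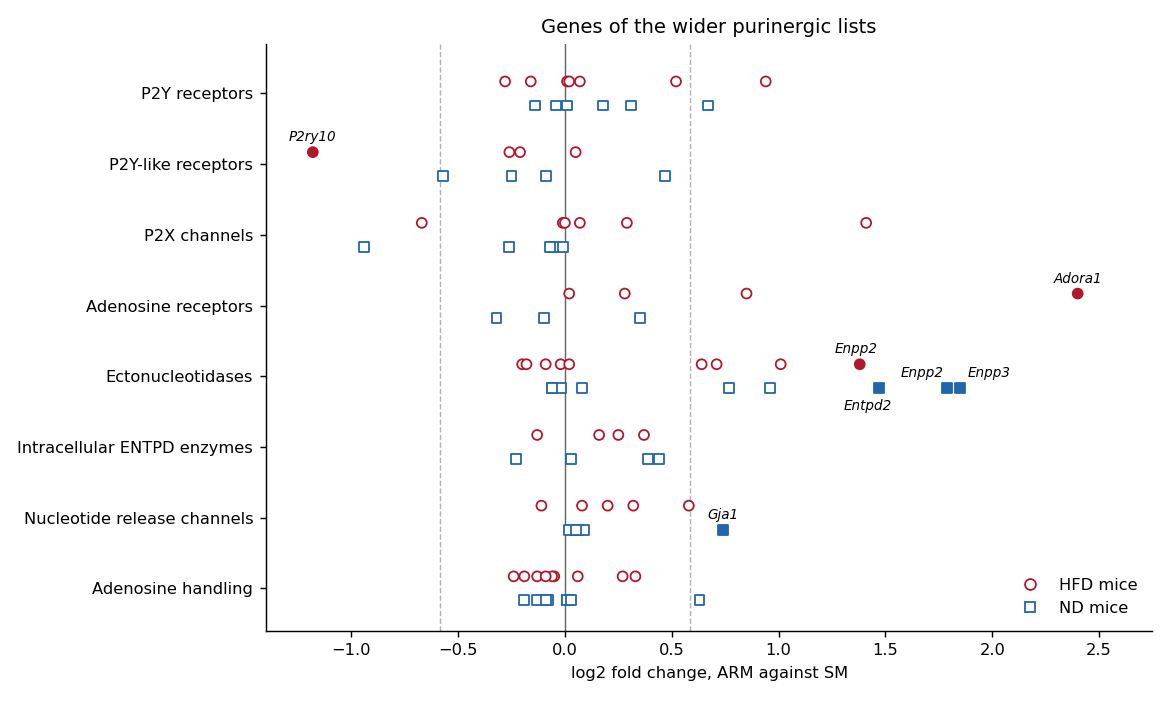
Log2 fold change between ARM and SM (x axis) of every tested gene of the 8 purinergic lists (rows), on HFD (circles) and ND (squares), with filled and named points for genes that passed the test and dashed lines at a 1.5-fold change. All filled points but P2ry10 lie on the right, from 0.74 for Gja1 to 2.40 for Adora1.

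The most abundant genes of the lists were level or nearly so between ARM and SM. Pnp, the phosphorylase that breaks down inosine and guanosine, had the highest mean of its list of adenosine handling genes (110 FPKM over the 8 libraries). It was at 67.73 and 67.03 in HFD ARM, 80.72 and 75.08 in HFD SM, 150.41 and 131.88 in ND ARM, and 163.06 and 145.12 in ND SM, so the HFD libraries were all below the ND libraries, and its counts were fractional in all 8. Its log2 fold change in ARM was -0.24 (SE 0.06, adjusted p 0.0441 in edgeR) on HFD, under the 1.5-fold mark, and -0.13 (SE 0.10) on ND.

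Gpr34, a lysophosphatidylserine receptor of macrophages and microglia that is related to P2ry12, led the P2Y-like list at a mean of 60.4 FPKM. It was at 41.06 and 45.24 in HFD ARM and 54.53 and 46.53 in HFD SM, a log2 fold change of -0.26 (SE 0.08, adjusted p 0.0779 in edgeR), and at 80.36 and 62.84 in ND ARM and 77.57 and 75.27 in ND SM. Like P2ry12, it was lower in both HFD ARM libraries than in both HFD SM libraries, without passing the test. Ank, which exports pyrophosphate and ATP, led the release channels at 23.7 FPKM and Entpd5 the intracellular enzymes at 4.63, with log2 fold changes of 0.08 and -0.13 on HFD and 0.05 and 0.03 on ND.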

How the data were processed

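RNA of sorted ARM and SM was sequenced on an Illumina platform, and the authors deposited 1 table per diet with estimated counts, FPKM and TPM per gene and library. The submitters' processing notes name the build mm10, and the aligner, the annotation, the strand setting and the way counts were estimated are not given in the sources used here. The deposited estimated counts were rounded to whole numbers before each fit. The deposited FPKM values were used for levels and the deposited TPM values as an alternative scale, and the group average columns were not used. Sample groups came from the sample titles and diet labels.

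ARM was compared with SM within each diet with edgeR 4.0.16 (R 4.3.3), by its quasi-likelihood test after TMM scaling and filterByExpr, with p-values adjusted by Benjamini-Hochberg over every gene tested. Calls needed more than a 1.5-fold change with an adjusted p below 0.05. How the change differed between diets was the interaction term of 1 fit to all 8 libraries over genes in both tables, called on the adjusted p alone. The fits were checked on simulated counts. DESeq2 1.42.0 and limma 3.58.1 served as alternatives, with other normalizations, filters and left-out libraries. A fit with a library left out has 1 library in a group, so a call lost there can come from lost precision alone. Of the rows, 26 on HFD and 24 on ND had a symbol turned into a date or none and were kept by their ID. Positions came from GENCODE M21 (GRCm38), and its transcripts were searched for shared stretches of 50 bases.

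The 10 genes and the lists were chosen with earlier results of these data known. The genes named from the lists are those called in at least 1 diet and the most abundant gene of each list, and for a called member the 2 genes with the highest correlation. P2ry10b, Cd38 and Slc29a1 were named outside this rule. P2ry10b is the near copy of P2ry10, and Cd38 and Slc29a1 are single examples of a lower and a higher level on HFD. These examples do not show how the other genes of the lists stood between the diets. Libraries are pools of mice, so the tests set a difference against the spread between pools, not between mice. edgeR steadies the estimate of that spread for each gene with the values of all genes. The totals of 14508824 to 19040133 counts per library limit the precision of genes with few counts, such as Nt5e. With 2 libraries per group, only differences well beyond the spread between pools could pass the test.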

Additional observations from a re-analysis of the deposited data

How the results depend on the processing

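On HFD the number of genes called between ARM and SM was 1 (P2ry10), and it was 0 with DESeq2, with no filter on low counts, with limma on log2(FPKM + 1), with and without its filter, and on log2(FPKM + 0.1), and with P2ry10 and P2ry10b summed. It was 2 with the threshold stated in the methods (log2 fold change beyond 0.6 and unadjusted p under 0.05), which adds Nt5e, and between 0 and 1 with a library left out. It stayed at 1 with library totals, upper-quartile factors, at least 10 counts in every library, and 1 fit of all 8 libraries. With the replicate number as a replicate block the count was also 1, with P2ry10 at -1.19, and the block changed no other call. In that edgeR fit P2ry12 on HFD was at -0.28 with an adjusted p of 0.0281, still under the 1.5-fold mark. Whether same-numbered libraries came from the same mice is not stated in the sources used here, and the correlation of their deviations was 0.0803 on HFD and 0.363 on ND, with 2 pairs in each diet. On ND and for the difference between diets, 0 of the 10 genes were called under every alternative run.

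Calls among the other purinergic genes were lost under some of the same alternatives, which were applied to these genes after their calls were seen. In edgeR without a filter on low counts the adjusted p on HFD was 0.0568 for Enpp2 and 0.143 for Adora1. The ND calls of Enpp2, Entpd2, Enpp3 and Gja1 held in that fit, with an adjusted p of 0.0105 for Enpp3 and 0.00335 for Gja1. DESeq2 gave 0.282 for Enpp3 and 0.14 for Gja1 on ND and no adjusted p for Adora1. The fit of all 8 libraries gave 0.0838 for Adora1 and 0.0667 for Enpp3. For Gja1, limma on log2(FPKM + 0.1) gave 0.0807 and on log2(FPKM + 1) 0.0838. limma without a filter lost all of these calls (0.0953 for Enpp2 and 0.148 for Adora1 on HFD, and 0.199 for Enpp2, 0.244 for Entpd2, 0.267 for Enpp3 and 0.328 for Gja1 on ND).

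Values that changed sign were all of uncalled genes close to 0. On HFD P2rx4 became 0.01 with library totals, upper-quartile factors and the limma fits, and Entpd1 0.01 with library totals and the limma fits. On ND P2ry14 became -0.01 with the limma fits. For the difference between diets, P2ry14 and P2rx7 became 0.01 with DESeq2, 0.04 with library totals and 0.02 with no filter. With a library left out on HFD, P2ry6 ranged from -0.03 to 0.05, P2ry13 from -0.34 to 0.06, P2ry14 from -0.19 to 0.27, P2rx4 and Entpd1 from -0.08 to 0.05, and Adora2b from -0.11 to 0.14. On ND P2ry6 ranged from -0.17 to 0.08, P2ry14 from -0.11 to 0.14 and P2rx7 from -0.08 to 0.06. For the difference between diets, P2ry6 ranged from -0.05 to 0.17, P2ry14 from -0.22 to 0.25, P2rx4 from -0.04 to 0.09, P2rx7 from -0.11 to 0.10 and Entpd1 from -0.05 to 0.10. The cause was not tested. The HFD to ND ratios moved by more than the spread between libraries in 14 cases on TPM or TMM-normalized CPM, none of which changed sign. Counts of 9 to 24 for Nt5e and 20.94 to 90 for P2ry10 limit what could be detected for these genes.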
